A study of Mus musculus with 6 samples.

Results

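Notch ligands, receptors and targets, with the transcription factor Rbpj, were followed in NCAM-enriched epidermal cells and in bulk skin. The 10 genes were taken by name from the 54532 genes of the count table. They are the receptors Notch1, Notch2 and Notch3, the ligands Dll1, Dll3, Jag1 and Jag2, the targets Hes1 and Hey1, and Rbpj. The data were 6 Smart-seq2 libraries, which hold full-length cDNA from few cells, prepared from back-skin epidermis that had been dissociated from 4-week-old C57BL/6 mice of both sexes, with no treatment or engineered allele named. The NCAM-enriched group had 3 libraries of DAPI-negative cells that were bound by anti-PSA-NCAM beads and then sorted as NCAM-positive, a selection for Merkel cells. The bulk skin group had 3 libraries of DAPI-negative epidermal cells with no selection, which can include Merkel cells. Each library came from 500 sorted events, and no source used here says that the libraries of a group came from separate mice, so p-values measure only the spread between these libraries. The comparison asked which genes differ between the selected and the unselected cells.

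Notch signalling passes between touching cells. A ligand of the Delta-like or Jagged family on one cell binds a Notch receptor on its neighbour, the receptor is cleaved, and its intracellular part joins the DNA-binding protein RBPJ to switch on targets such as the Hes and Hey repressors. In the epidermis the pathway is known for its part in keratinocyte differentiation, and Hes1 is known as a repressor of Atoh1, the gene that specifies Merkel cells.

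The libraries held 1343190 to 4481830 counts, and 1 count was worth 0.216 to 0.773 normalised CPM (counts divided by the scaled library size of each sample). Pearson's r of log2 CPM across genes was 0.596 to 0.719 between NCAM-enriched libraries and 0.855 to 0.882 between bulk skin libraries. The NCAM-enriched libraries were thus less alike. Libraries 1 and 2 of that group also had fewer counts (1995112 and 1343190) than any bulk skin library (3333753 to 4481830). The part of depth in the lower r was not tested. The labelled sort was checked against 11 Merkel cell marker genes, which summed to 1707, 1771 and 498 CPM in the selected libraries, in their numbered order, against 143 to 191 CPM unselected. All 11 were higher in every NCAM-enriched library than in any bulk skin library, as 11.1% of all genes tested were. Markers of suprabasal keratinocytes summed to 12988 to 29860 CPM in the NCAM-enriched libraries against 1055 to 1419, and those of T cells to 42.0 to 169 against 3557 to 3787. Those of the hair follicle summed to 6314 to 29008 against 2144 to 2742, a sum made mostly by the keratins Krt17 and Krt79, while 4 of the 7 tested had a log2 fold change below 0 and the median was -0.18. Within its group NCAM-enriched library 2 stood apart in fibroblast and mural markers, with 32990 CPM against 385 and 41.7 in libraries 1 and 3. Bulk skin had 12990, 17973 and 10024 CPM, so libraries 1 and 3 lay far below it. Of this list 4 of the 6 tested had a log2 fold change below 0, and the mural marker Rgs5 had 0 counts in all NCAM-enriched libraries. In such libraries fewer cells of a type and less RNA per cell cannot be told apart.

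No member of the Notch group passed the main test, edgeR's quasi-likelihood test with adjustment over 13157 genes at an adjusted p of 0.05. It called 0 of the 10, against 2.59% of all genes tested. At an unadjusted p under 0.05 there were 4 of 10, against 18.9% of all genes. Of these Notch1, Notch3 and Hes1 were higher and Hey1 lower in the NCAM-enriched group, where 8.73% and 10.2% of all genes were. DESeq2, the tool named in the study's methods, called 3 of the 10, again Notch1, Notch3 and Hes1, all higher, against 12.2% of the genes it tested and 5.06% called higher. Limma-voom called Dll1 alone, as lower, against 6.45% of genes. EdgeR on all genes with at least 1 count called Notch1 and Notch3 higher, against 2.76% of genes. In 5 of the 10 the groups did not overlap, against 30.4% of all genes tested. Notch1 and Hes1 were higher in every NCAM-enriched library, as 11.1% of all genes were, and Dll1, Hey1 and Rbpj were lower, as 19.3% were. The median log2 fold change of the 10 was 0.50 and that of all genes tested was -0.07, with 5 of the 10 above 0 and 5 below.

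**Figure D1:**
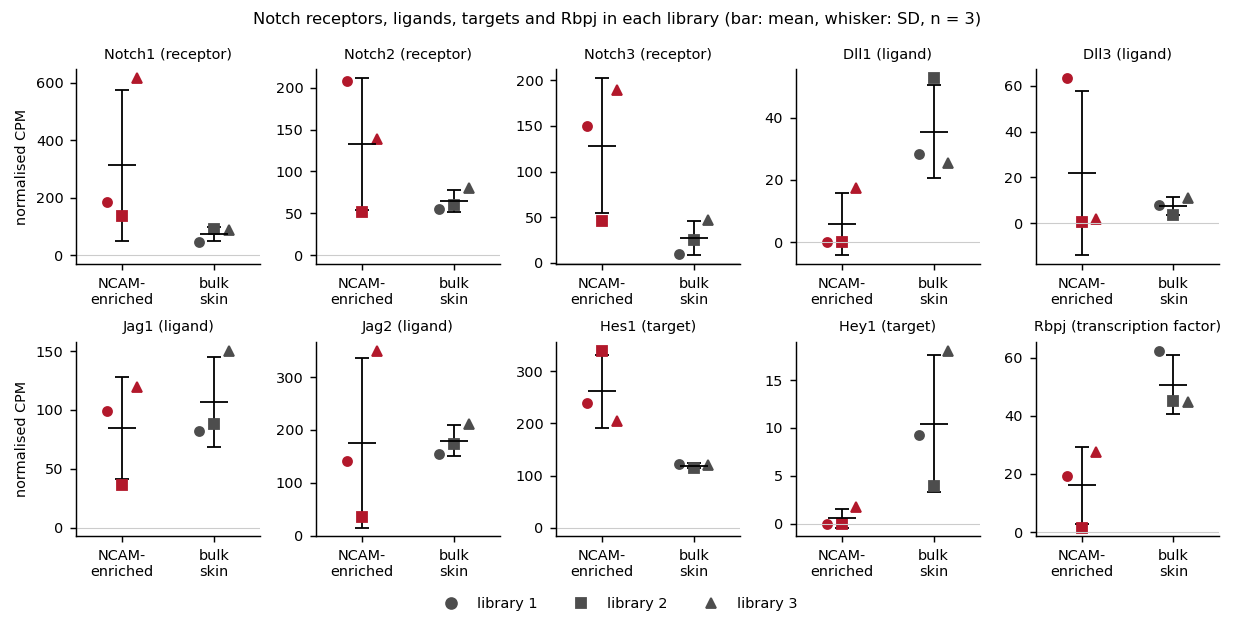
Normalised CPM of the 10 Notch genes in each library, with its own linear axis for each gene, the bar at the mean and the whisker at 1 SD (n = 3). The libraries of the groups do not overlap for Notch1, Hes1, Dll1, Hey1 and Rbpj, and the spread within the NCAM-enriched group is wide for all but Hes1.

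Promoter sequence was taken from RefSeq (GRCm38.p6) as the 250 bases before each annotated start, and 8 of the 10 Notch genes matched, all but Hes1 and Hey1. The core of the RBPJ binding motif, TGGGAA, or TTCCCA on the other strand, was searched because RBPJ is the factor through which the receptors act, and it is held by 21.6% of 32851 such windows. Among the matched Notch genes only Rbpj held it. The windows of Notch1 and Notch3, those of the 3 listed receptors with the largest log2 fold changes, are shown beside those of Rbpj and of Dtx2, a further pathway gene described last. They lie at chr2:26503823-26504072 (minus strand) for Notch1, chr17:32166891-32167140 (minus) for Notch3, chr5:53590096-53590345 (plus) for Rbpj and chr5:135994550-135994799 (plus) for Dtx2. Each is written 5′ to 3′ toward the start, with matches to the core in capitals.
Notch1: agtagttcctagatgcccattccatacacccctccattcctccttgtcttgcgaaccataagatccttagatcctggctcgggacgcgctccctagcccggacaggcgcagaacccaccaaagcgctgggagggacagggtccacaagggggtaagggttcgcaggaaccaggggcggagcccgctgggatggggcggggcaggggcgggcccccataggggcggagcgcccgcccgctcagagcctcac
Notch3: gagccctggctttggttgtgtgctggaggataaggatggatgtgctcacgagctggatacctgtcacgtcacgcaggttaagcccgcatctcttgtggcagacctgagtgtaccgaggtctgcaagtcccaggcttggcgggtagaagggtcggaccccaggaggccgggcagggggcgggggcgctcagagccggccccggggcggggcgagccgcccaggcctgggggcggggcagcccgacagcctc
Rbpj: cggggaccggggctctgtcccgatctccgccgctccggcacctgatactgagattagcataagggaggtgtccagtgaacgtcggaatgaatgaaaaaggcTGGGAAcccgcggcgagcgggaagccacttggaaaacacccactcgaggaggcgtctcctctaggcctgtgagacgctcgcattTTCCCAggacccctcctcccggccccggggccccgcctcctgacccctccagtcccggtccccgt
Dtx2: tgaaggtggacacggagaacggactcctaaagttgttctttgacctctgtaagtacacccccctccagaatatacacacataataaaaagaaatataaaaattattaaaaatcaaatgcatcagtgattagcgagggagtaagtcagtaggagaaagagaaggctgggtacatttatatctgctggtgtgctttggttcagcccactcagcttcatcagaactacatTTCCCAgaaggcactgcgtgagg
The Rbpj window shown held both forms, at -149 and -65 from the start, and the Dtx2 window held one at -23. Both Notch1 and Notch3 windows lacked these letters. In the wider pathway list, 14 of 57 windows (24.6%) held the core. A match in these letters is a description of the sequence and was not measured as binding.

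All 3 receptors had log2 fold changes above 0 under each scaling tried, and none passed the edgeR test. Notch1 (ENSMUSG00000026923, chromosome 2, 26457903 to 26516663, minus strand, GRCm38), the main Notch receptor of epidermal differentiation, had 186, 135 and 616 CPM in the NCAM-enriched libraries, given here and below in their numbered order, and 45.6, 90.1 and 86.4 CPM in the bulk skin libraries. Every NCAM-enriched library was above every bulk skin library, and library 3 was far above libraries 1 and 2. The means were 312 ± 264 CPM (SD, n = 3) and 74.0 ± 24.7. The log2 fold change was 2.08 ± 0.62 (SE), with a 95% interval of 0.68 to 3.48 and an edgeR adjusted p of 0.102. DESeq2 gave 0.0186, and the 13 alternatives spanned adjusted p-values of 0.00291 to 0.349 for Notch1. Of its exonic bases 9.76% are shared with other genes on the opposite strand, whose reads cannot be told apart from its own in libraries that do not mark strand. For Notch3 6.03% are shared with a gene on the opposite strand, and for Notch2 5.02% with a gene on the same strand.

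Notch3 (ENSMUSG00000038146, chromosome 17, 32120820 to 32166852, minus strand), a receptor best known from smooth muscle and mural cells and also found in keratinocytes, had 150, 46.4 and 189 CPM in the NCAM-enriched libraries and 9.31, 25.3 and 46.6 in bulk skin. NCAM-enriched library 2 and bulk skin library 3 were nearly level, and the other libraries were apart. It had a log2 fold change of 2.25 ± 0.71 (95% interval 0.63 to 3.87, edgeR adjusted p = 0.126, DESeq2 adjusted p = 0.0288). Without NCAM-enriched library 2 both Notch1 and Notch3 were called higher by edgeR, against 3.09% of all genes.

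Notch2 (ENSMUSG00000027878, chromosome 3, 98013527 to 98150361, plus strand), a receptor broadly expressed in epithelia, had 208, 51.8 and 139 CPM against 55.0, 60.3 and 80.1. Libraries 1 and 3 were above bulk skin and library 2 was below it. The log2 fold change of 1.03 ± 0.52 (95% interval -0.16 to 2.22) did not pass in edgeR (adjusted p = 0.335) or in any of the 13 alternatives.

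Levels of different genes were compared as CPM per kb of exon, with the exons of all annotated transcripts of a gene merged. Shares and orders of levels depend on this choice of length. The 4 receptors, with Notch4 added, summed to 50.9, 20.03 and 80.3 CPM per kb in the NCAM-enriched libraries and to 9.92, 15.8 and 21.6 in bulk skin, so that the lowest NCAM-enriched library lay just below the highest bulk skin library. Notch3 made up 36.4, 28.6 and 29.1% of the receptor sum in the NCAM-enriched libraries and 11.6, 19.7 and 26.6% in bulk skin, with no overlap. The share of Notch1 overlapped, at 25.7, 47.4 and 53.9% against 32.3, 40.0 and 28.0%. Notch2 held 16.03 to 37.9% of the sum in the NCAM-enriched libraries and 34.3 to 51.4% in bulk skin. These shares are descriptions of 3 libraries a group and were not tested.

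**Figure D2:**
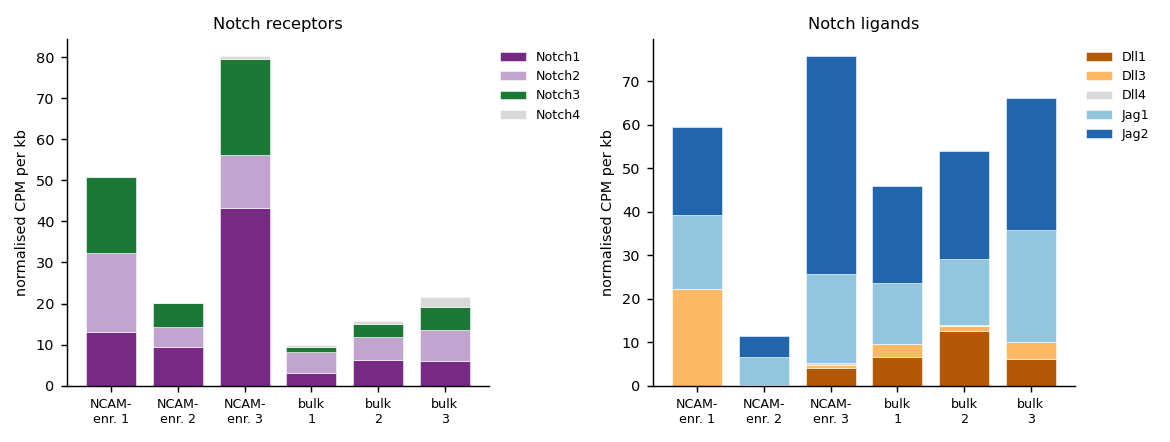
Stacked levels of the Notch receptors (left) and ligands (right) in each library, in normalised CPM per kb of exon. The receptor sum is 20.03 to 80.3 in the NCAM-enriched libraries and 9.92 to 21.6 in bulk skin, while the ligand sum of NCAM-enriched library 2 is far below all others at 11.5.

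The ligands had log2 fold changes on both sides of 0, and none was called by edgeR. Dll1 (ENSMUSG00000014773, chromosome 17, 15367354 to 15376872, minus strand), a Delta-like ligand of epidermal stem cells, had 0, 0 and 61 counts in the NCAM-enriched libraries and 91, 244 and 93 in bulk skin. That is 17.3 CPM in NCAM-enriched library 3 and 28.3, 52.7 and 25.5 CPM in bulk skin. It went undetected in NCAM-enriched libraries 1 and 2 and was below bulk skin in the third. The fitted log2 fold change was -2.54 ± 1.53 (95% interval -6.03 to 0.94, edgeR adjusted p = 0.429). Limma-voom gave -4.77 with an adjusted p of 0.0455. Without NCAM-enriched library 3 the edgeR adjusted p was 0.0261, where 4.9% of all genes were called lower. Dll1 was at least 39.4-fold lower in libraries 1 and 2 than in the pooled bulk skin libraries (37.2 CPM), taking 3 counts over both libraries as the floor. The bound is smaller against bulk skin library 1 or 3 alone, and it leaves out NCAM-enriched library 3 with its 61 counts. Of the exonic bases of Dll1, 20.5% are shared with A930024N18Rik on the opposite strand.

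Dll3 (ENSMUSG00000003436, chromosome 7, 28293553 to 28302238, minus strand), an atypical ligand that inhibits Notch within its own cell and is a surface antigen of neuroendocrine tumours, rested on a single library. It had 119, 1 and 6 counts after NCAM selection, or 63.2, 0.773 and 1.70 CPM, and 8.07, 3.46 and 11.2 CPM in bulk skin. Library 1 was above all bulk skin libraries and libraries 2 and 3 were below them all. Its fitted log2 fold change was 1.53 (95% interval -1.87 to 4.93, edgeR adjusted p = 0.647), and it was -2.52 without library 1 (adjusted p = 0.352).

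The Jagged ligands had overlapping groups. Jag1 (ENSMUSG00000027276, chromosome 2, 137081456 to 137116644, minus strand), a ligand of the basal layer and hair follicle, had 99.4, 36.3 and 119 CPM against 82.0, 87.8 and 151, a log2 fold change of -0.32 (95% interval -1.49 to 0.84, edgeR adjusted p = 0.8002). Jag2 (ENSMUSG00000002799, chromosome 12, 112907819 to 112929776, minus strand), its basal-layer paralogue, had 142, 34.8 and 350 CPM against 155, 173 and 212, a log2 fold change of -0.03 (95% interval -1.57 to 1.51, edgeR adjusted p = 0.986). For both genes NCAM-enriched library 2 was the lowest of all 6 libraries, and the intervals allow a change of more than 2-fold in either direction for Jag2. The basal keratinocyte markers also had overlapping sums, 9898, 7580 and 31095 CPM against 12341 to 16552. Within the NCAM-enriched group Jag2 and this sum were lowest in library 2 and highest in library 3. The hair follicle sum and the total counts of the libraries had the same order. Their part in the Jag2 values was not tested.

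Per kb of exon, the 5 ligands Dll1, Dll3, Dll4, Jag1 and Jag2 summed to 59.6, 11.5 and 75.9 CPM per kb in the NCAM-enriched libraries and 45.9, 53.9 and 66.2 in bulk skin. Jagged ligands held most of the sum in every library. Dll1 held 0, 0 and 5.41% in the NCAM-enriched libraries and 14.6, 23.2 and 9.12% in bulk skin, while Dll3 held 37.2% in NCAM-enriched library 1 and at most 6.17% in any other library.

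Rbpj (ENSMUSG00000039191, chromosome 5, 53466152 to 53657362, plus strand), the DNA-binding factor shared by all Notch receptors, was lower in every NCAM-enriched library than in any bulk skin library. Its 2 overlapping promoter windows hold the RBPJ core, as 21.6% of all windows do. It had 19.1, 1.55 and 27.5 CPM against 62.4, 45.0 and 44.7. The means were 16.1 ± 13.3 and 50.7 ± 10.2, and the log2 fold change of -1.63 ± 0.88 (95% interval -3.63 to 0.36) did not pass (edgeR adjusted p = 0.368, and 0.171 to 0.662 in the alternatives). T cell markers were lower in the same libraries, with 7 of 7 below 0 in log2 fold change. Langerhans cell and other myeloid markers summed to 186 to 675 CPM against 7284 to 14330. Of these 7 markers, 6 had a log2 fold change below 0 and 1 above it, at 0.40. Their part in the Rbpj difference was not tested.

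The targets Hes1 and Hey1 had point estimates of opposite sign. Hes1 (ENSMUSG00000022528, chromosome 16, 30064384 to 30067796, plus strand), a basic helix-loop-helix repressor, had 240, 340 and 204 CPM in the NCAM-enriched libraries and 123, 114 and 120 in bulk skin. The bulk skin libraries lay close together and every NCAM-enriched library was well above them. The means were 261 ± 70.3 and 119 ± 4.54 CPM, and the log2 fold change was 1.14 ± 0.35 (95% interval 0.35 to 1.93, edgeR adjusted p = 0.113). DESeq2 gave an adjusted p of 0.0384, the only one of the 13 alternatives under 0.05 for Hes1. Among the 10 genes Hes1 alone had its highest value in NCAM-enriched library 2, the library that was lowest for 7 of them.

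Hey1 (ENSMUSG00000040289, chromosome 3, 8663359 to 8667256, minus strand), a related repressor that is also prominent in blood vessels, had 0, 0 and 6 counts in the NCAM-enriched libraries and 30, 18 and 66 in bulk skin. Like Dll1 it was undetected in NCAM-enriched libraries 1 and 2 and was low in the third. In CPM it was 1.70 in NCAM-enriched library 3 against 9.31, 3.89 and 18.1 in bulk skin. The log2 fold change was -3.87 ± 1.56 (95% interval -7.42 to -0.33), with an edgeR adjusted p of 0.220, and of 0.0589 to 0.498 in the alternatives. Against a floor of 3 counts, Hey1 was at least 10.5-fold lower in NCAM-enriched libraries 1 and 2 than in the pooled bulk skin libraries (9.92 CPM). The bound is smaller against bulk skin library 2 alone. Endothelial markers summed to 12.2, 34.8 and 14.5 CPM in the NCAM-enriched libraries and 52.5, 90.8 and 65.8 in bulk skin. Among them 3 of the 6, Cdh5, Tek and Emcn, had 0 counts in all NCAM-enriched libraries. Of the 5 tested, 4 had a log2 fold change below 0 and 1 above it, at 0.81. EdgeR called 0 of these markers, against 2.59% of all genes, and DESeq2 called 3 lower, against 7.1%. The part of endothelial cells in the Hey1 difference was not tested.

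**Figure D3:**
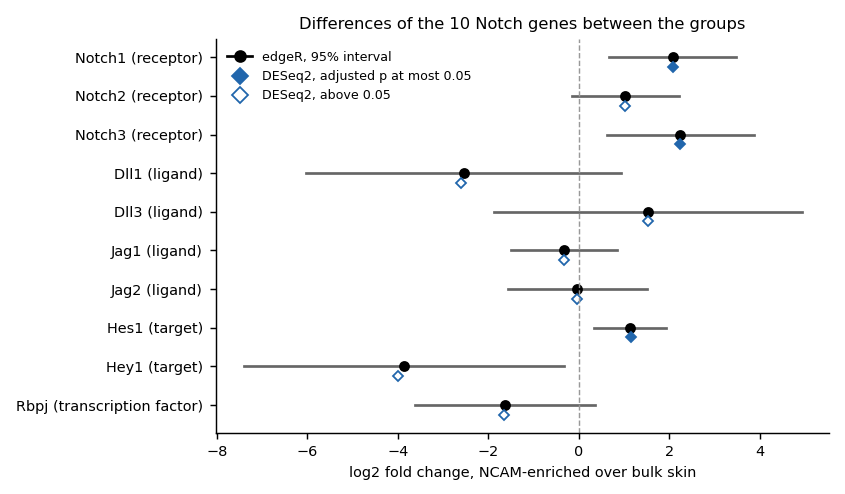
Log2 fold changes of the 10 Notch genes, NCAM-enriched over bulk skin, with the edgeR estimate and its 95% interval in black and the DESeq2 estimate as a diamond that is filled where its adjusted p was at most 0.05. The filled diamonds are Notch1, Notch3 and Hes1, and the edgeR intervals of these 3 and of Hey1 leave out 0 before adjustment.

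In the order of levels per kb of exon, Hes1 was first in both groups, at 128 ± 34.5 CPM per kb after NCAM selection and 58.2 ± 2.23 without it. In both groups it was above Jag2, the next gene, in every library. Bulk skin then ran from Jag2 (25.8 CPM per kb) and Jag1 (18.3) to Dll1 (8.41), Notch2 (6.04), Notch1 (5.20), Rbpj (3.98), Notch3 (3.35), Hey1 (3.20) and Dll3 (2.66), where only Jag1 and Dll1 were neighbours without overlap. In the NCAM-enriched group Jag2 (25.2 CPM per kb) was followed by Notch1 (21.9), Notch3 (15.9), Jag1 (14.6), Notch2 (12.3), Dll3 (7.69), Dll1 (1.37), Rbpj (1.26) and Hey1 (0.174). Below Hes1, all neighbours in that order overlapped.

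Notch1 had the smallest p of the 10, and the genes with the most similar profile to it were sought among 8549 genes averaging 20 CPM or more. Over the 6 libraries, which include both groups and share their depth with Notch1, the highest Pearson's r of log2(CPM + 1) were those of Sox7, an endothelial and endodermal transcription factor (0.987), Ptprf, a receptor tyrosine phosphatase of epithelial contacts (0.985), and Atf7ip, a chromatin regulator (0.980). These values describe 6 points and were the highest of many.

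The wider pathway was described with a list of 55 further Notch genes, sorted by role, of which 47 passed the filter on low counts. EdgeR called 1 of them higher and 0 lower, against 1.04% and 1.55% of all genes, and 9 and 2 passed an unadjusted p of 0.05, against 8.73% and 10.2%. DESeq2 called 5 higher and 1 lower, against 5.06% and 7.1% of all genes. The groups did not overlap for 11 higher and 4 lower genes, against 11.1% and 19.3% of all genes. The median log2 fold change of the 47 was 0.44.

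Dtx2, a Deltex E3 ubiquitin ligase that acts on Notch receptors, rose and was the one gene called by edgeR. It lies on chromosome 5, 135994800 to 136032872, plus strand, and its promoter window, shown above, holds 1 match to the RBPJ core. It had 139, 153 and 150 CPM in the NCAM-enriched libraries and 32.6, 36.7 and 30.2 in bulk skin. The libraries within each group were close together and the groups were far apart, which set Dtx2 apart from the receptors with their wide spread. The means were 147 ± 7.26 and 33.2 ± 3.33 CPM, with a log2 fold change of 2.15 ± 0.37 (95% interval 1.31 to 2.995, edgeR adjusted p = 0.0253). The call was lost without bulk skin library 1 (log2 fold change 2.08, adjusted p = 0.217), 2 (2.17, 0.183) or 3 (2.03, 0.192), fits that called 0, 0 and 1 of all genes higher. It held without any single NCAM-enriched library, and DESeq2 gave an adjusted p of 2.08e-06. Of the other Deltex genes, Dtx3, the most abundant gene of this role per kb over both groups together, had a log2 fold change of -0.44 (adjusted p = 0.728).

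Genes of ligand endocytosis, which the sending cell needs to pull on the receptor, had log2 fold changes above 0 in 5 of 5 under each scaling tried, where 6270 of all 13157 genes had one, but Mib1 was below 0 without NCAM-enriched library 2 (-0.25) and Neurl1b without library 3 (-1.22). EdgeR called 0 of the 5, against 2.59% of all genes, and DESeq2 called 3 higher, against 5.06%. Those 3 were Epn1, Neurl1a and Mib2, of which Neurl1a and Mib2 fall outside the rule for named genes and were chosen after their values were seen. Epn1, an endocytic adaptor, had 117, 169 and 92.2 CPM against 33.2, 46.9 and 64.2 (log2 fold change 1.39, edgeR adjusted p = 0.127, DESeq2 0.0486). Neurl1a, a Neuralized ubiquitin ligase, had 111, 11.6 and 9.08 CPM against 1.55, 4.76 and 3.84, high in library 1 above all (edgeR adjusted p = 0.131, DESeq2 0.0101). Mib2, a Mind bomb ubiquitin ligase, had 54.7, 53.3 and 77.2 CPM against 20.2, 17.3 and 27.7 (edgeR adjusted p = 0.159, DESeq2 0.0319).

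Among the 5 genes that glycosylate the receptors, edgeR called 0, against 2.59% of all genes. DESeq2 called Poglut1 lower, against 7.1%. Poglut1, the enzyme that adds O-glucose to Notch, had 5.84, 6.95 and 21.8 CPM against 76.7, 53.4 and 72.7, with no overlap between the groups. Its log2 fold change was -2.52 ± 0.69 (95% interval -4.08 to -0.96, edgeR adjusted p = 0.0835, DESeq2 0.00535). Rfng, a Fringe glycosyltransferase, had 0.31 (edgeR adjusted p = 0.889).

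None of the 10 cleavage genes was called by edgeR or DESeq2, against 2.59% and 12.2% of all genes. In edgeR 1 higher and 1 lower had an unadjusted p under 0.05, against 8.73% and 10.2% of all genes. Aph1c, a subunit of gamma-secretase, had 4 counts in all after NCAM selection and 85 without it (log2 fold change -3.64, edgeR adjusted p = 0.178). Ncstn, the nicastrin subunit, had overlapping groups and a log2 fold change of -0.06 (edgeR adjusted p = 0.972).

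Of the 8 coactivators, edgeR called 0, against 2.59% of all genes. DESeq2 called Crebbp, a histone acetyltransferase, as higher, against 5.06%. Crebbp had 312, 568 and 253 CPM against 129, 147 and 177, with no overlap (log2 fold change 1.32, edgeR adjusted p = 0.114, DESeq2 0.0407). Snw1, which binds the RBPJ complex, had a log2 fold change of 1.39 (edgeR adjusted p = 0.269). Of its exonic bases 44.2% are shared with Slirp on the opposite strand. Of the 6 genes listed as corepressors, 5 had log2 fold changes above 0 under each scaling tried. Rbpjl, listed with them as a relative of Rbpj, was above 0 in the main fit and below 0 with RLE or upper-quartile factors. Over all alternatives the lowest values were -2.64 for Rbpjl, -0.14 for Ncor1 and -0.12 for Ctbp1. None was called by edgeR or DESeq2, against 2.59% and 12.2% of all genes. The highest was Spen at 1.49, which represses with RBPJ (edgeR adjusted p = 0.207). Ctbp1, the most abundant corepressor per kb, had 0.18 (adjusted p = 0.843).

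Little was measured of the remaining receptors, ligands and targets. Notch4, the endothelial receptor, had 22 counts in the NCAM-enriched group, all in library 3, and 111 in bulk skin (log2 fold change -2.10, edgeR adjusted p = 0.558). Dlk2, a Delta-like protein without the usual receptor-binding domain, had a log2 fold change of 0.06 (adjusted p = 0.986) that turned below 0 with upper-quartile factors, and Dll4, Dlk1 and Dner did not pass the filter. Of 7 further Hes and Hey targets, 3 were tested and none was called by edgeR or DESeq2, against 2.59% and 12.2% of all genes. Hes7 had 30.8, 19.3 and 0.284 CPM against 3.42, 0 and 0 (adjusted p = 0.356), and Hes6, which opposes Hes1, had 11.2, 86.5 and 28.7 CPM against 8.38, 12.3 and 26.6 (adjusted p = 0.453).

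**Figure D4:**
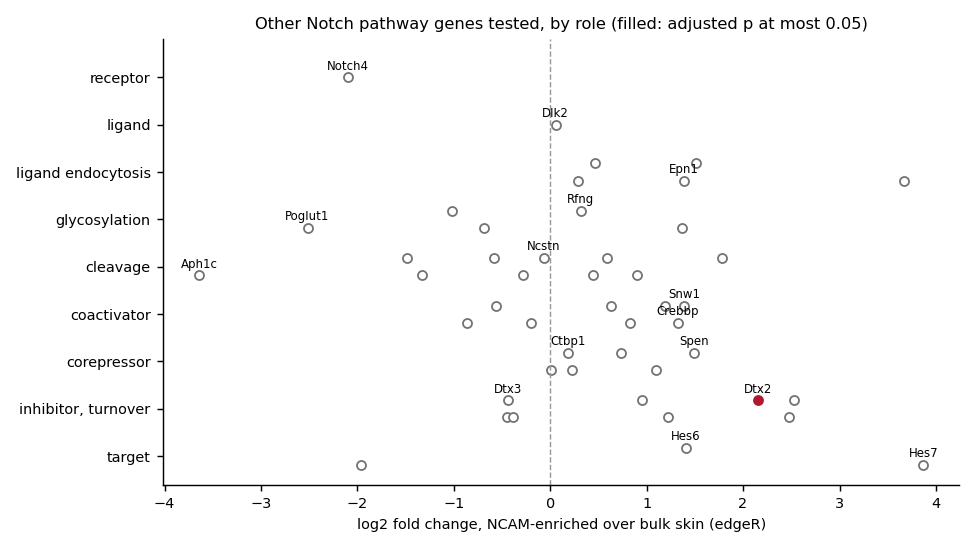
EdgeR log2 fold changes, NCAM-enriched over bulk skin, of the 47 further Notch pathway genes tested, in rows by role, with the named genes labelled. Dtx2 at 2.15 is the one filled point (adjusted p at most 0.05), and the 5 ligand endocytosis genes lie above 0. So do the 6 genes listed as corepressors, of which Rbpjl turns below 0 with RLE or upper-quartile factors.

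**Figure D5:**
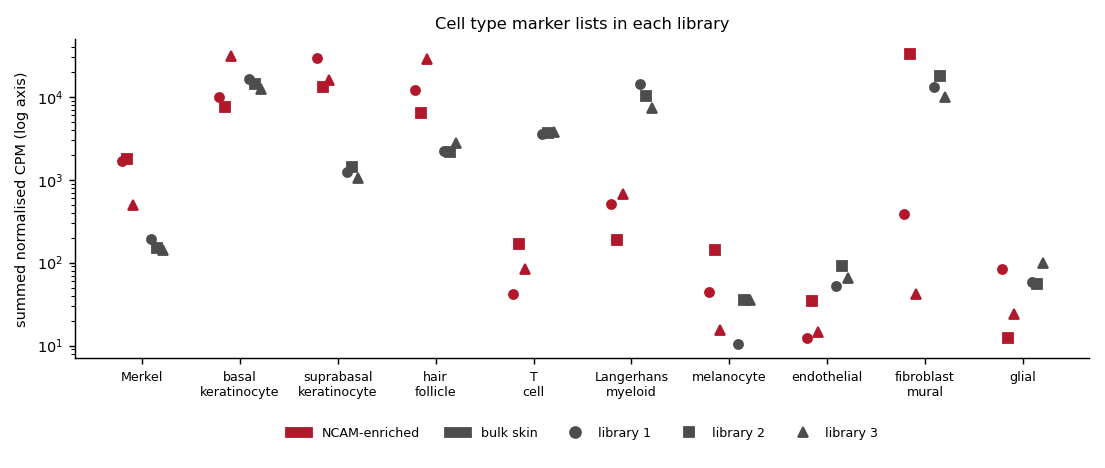
Summed normalised CPM of 10 cell type marker lists in each library, on a log axis. Merkel, suprabasal keratinocyte and hair follicle sums are higher in every NCAM-enriched library than in bulk skin, T cell, Langerhans and myeloid and endothelial sums are lower, and basal keratinocyte sums overlap.

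The order of the libraries was compared between the Notch genes and the marker lists of other cell types. NCAM-enriched library 3 had the highest value of its group for 7 of the 10 Notch genes, and it also had the highest basal keratinocyte sum, 31095 CPM, the highest hair follicle sum, 29008 CPM, and the lowest Merkel sum, 498 CPM. NCAM-enriched library 2, lowest without a tie for 7 of the 10, had the lowest basal keratinocyte, suprabasal keratinocyte and hair follicle sums of its group. Its Langerhans and myeloid and glial sums were the lowest too. Its Merkel, T cell, melanocyte, endothelial and fibroblast and mural sums were the highest. Library 2 also had the fewest counts of its group, 1343190, and library 3 the most, 3798136. EdgeR called 1.04% of all genes tested higher and 1.55% lower. Of the Merkel markers it called 5 of 11 higher, and of the suprabasal markers 6 of 8. Of the hair follicle markers tested 1 was called higher and 1 lower of 7, and of the basal markers 0 of 7 were called. Of the T cell markers 6 of 7 were called lower, and Cd3d had 0 counts in the NCAM-enriched group. The part of these cell types, or of library depth, in the differences of the Notch genes was not tested.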

How the data were processed

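The authors deposited raw counts of reads for each gene, not normalized. By the study's methods, adapters and polyA were clipped, abundant sequences removed, 50-base single-end reads aligned to GRCm38 with STAR, and reads counted with featureCounts. For the annotation release and strand setting, nothing is given in the sources used here. Smart-seq2 does not mark strand.

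Positions, exonic lengths and overlaps came from GENCODE M21, in which 54495 of 54532 gene IDs were found. Groups came from the labels. Genes were filtered with filterByExpr, scaled with TMM factors and tested by the quasi-likelihood F-test of edgeR 4.0.16 in R 4.3.3. The Benjamini-Hochberg adjustment ran over all 13157 genes tested, and calls were made at 0.05. The common biological coefficient of variation was 0.744. SE was derived from the test, as the size of the log2 fold change over the square root of F, and intervals (95%) use it. CPM are counts per TMM-scaled library size. Without molecular identifiers PCR copies are counted too, so floors (3 counts) cover counting error only.

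Alternatives were RLE and upper-quartile factors, all genes with at least 1 count, DESeq2 1.42.0, limma-voom (limma 3.58.1), robust dispersion, a block for the replicate number, and leaving out each library. Named genes were the 10 Notch genes, and of the wider list each called gene and, per role, the gene with the smallest p and the most abundant per kb, with exceptions stated. The genes and lists were chosen with earlier results of these data known. Figures were drawn with matplotlib 3.10.9.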

Additional observations from a re-analysis of the deposited data

How the results depend on the processing

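Of 130 values of the 10 Notch genes over 13 alternatives, 114 kept their direction and their side of the threshold, 9 newly passed it and 7 changed sign. The count of Notch genes called higher, 0 in the main test, was 2 with all genes of at least 1 count (Notch1 and Notch3) and 3 with DESeq2, and 0 to 2 when one library was left out, with 2 without NCAM-enriched library 2. The count called lower, 0, was 1 with limma-voom and 0 to 1 when one library was left out, with Dll1 called without NCAM-enriched library 3. In the wider list the count called higher, 1, was 2 with all genes of at least 1 count, 5 with DESeq2 and 0 to 3 when one library was left out, and the count called lower, 0, was 1, 1 and 0 to 1. The cause was not tested.

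The replicate numbers did not pair the libraries, whose deviations from their group means correlated at 0.0226, 0.000250 and -0.00436 between the same numbers. With the number as a block, 0 genes of the wider list were called higher and Dtx2 had an adjusted p of 0.0873. Over all genes the main test called 137 higher and 204 lower, the block 50 and 92, DESeq2 661 and 928, limma-voom 351 and 849, and all genes with at least 1 count 769 and 741. Leaving out one library moved these counts to 0 to 1099 higher and 13 to 733 lower, with 60, 444 and 1099 higher without NCAM-enriched library 1, 2 or 3 and 0, 0 and 1 without bulk skin library 1, 2 or 3.

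Some directions were not stable. The log2 fold change of Dll3 was -0.41 with limma-voom, -0.78 under the block and -2.52 to 2.07 when one library was left out. That of Dlk2 was -0.021 with upper-quartile factors, -1.26 with limma-voom, -0.78 under the block and -1.29 to 0.62 with one library left out. Rfng was -0.24 and Neurl1b -0.25 under the block. With one library left out Jag1 ran from -0.70 to 0.023, Jag2 from -1.07 to 0.44, Rfng from -0.44 to 0.83, Ncstn from -0.94 to 0.39 and Ctbp1 from -0.12 to 0.30. With 3 libraries a group and 1 count worth up to 0.773 CPM, differences in Hey1, Dll3 and Aph1c rest on few counts.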
